A study of Arabidopsis thaliana with 4 samples.

Results

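The 48 microRNA precursor genes described here are the genes of the miR156 to miR408 families and *MIR838* that were picked by gene identifier, out of 33854 genes and 178 *MIR* genes in the tables. Their values in these libraries were known when they were picked, so their levels are a description. They belong to 27 families by the number in the gene symbol, 14 of them with 1 gene here and 13 with 2 or more. Poly-A RNA of 12-day-old *Arabidopsis thaliana* seedlings, kept at 22 °C in days of 16 h light and nights of 8 h, was sequenced in 2 libraries of the wild type Col-0 and 2 libraries of *35S-COLDAIR*. The *35S-COLDAIR* plants carry, in the Col-0 background, the intronic *COLDAIR* sequence from *FLC* under the constitutive *CaMV 35S* promoter, and the libraries come from 1 representative transgenic line. The values are FPKM, a level in which the fragments of a gene are divided by its length and by the depth of the library. The labels do not say whether the libraries of a genotype came from separate cultures, so the p-values measure only the spread between these libraries.

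Plant *MIR* genes are transcribed by RNA polymerase II into capped, polyadenylated primary transcripts. DCL1, with HYL1 and SE, cuts the stem-loop of the primary transcript in the nucleus, HEN1 methylates the ends of the released duplex, and AGO1 loads 1 strand and uses it to cleave or repress matching mRNAs. A poly-A library therefore reads the primary transcript before it is cut, and the level of a *MIR* gene in it is not the level of the mature microRNA. The families here include regulators of the juvenile phase (miR156), flowering and floral identity (miR172), leaf shape (miR319), auxin response (miR160, miR167 and miR393) and copper use (miR397, miR398 and miR408).

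The mature sequences of the 9 precursors with a value in any library are shown first, because only these carry a level, together with those of *MIR159a* and *MIR159c*, the nearest relatives of the precursor with the largest genotype difference. They were read 5′ to 3′ from the RefSeq TAIR10.1 genome at the annotated positions, and the capitals mark the seed, bases 2 to 8.
miR156c-5p: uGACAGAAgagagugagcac
miR159a: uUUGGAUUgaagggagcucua
miR159b-3p: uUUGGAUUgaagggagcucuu
miR159c: uUUGGAUUgaagggagcuccu
miR162a-3p: uCGAUAAAccucugcauccag
miR163: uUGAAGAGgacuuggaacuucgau
miR167a-5p: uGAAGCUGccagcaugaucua
miR172a: aGAAUCUUgaugaugcugcau
miR398c-3p: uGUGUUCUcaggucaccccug
miR408-3p: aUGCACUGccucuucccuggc
miR838: uUUUCUUCuacuucuugcaca

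The 48 precursors held 25 different seeds, and 2 seeds were shared by 2 families, CGGACCA by miR165 and miR166 and GAUUGAG by miR170 and miR171. The 3 miR159 forms share 1 seed, and with positions counted from 1 at the 5′ end miR159a differs from miR159b-3p by A21U and miR159b-3p from miR159c by U20C. The seed of miR319, UGGACUG, is another one.

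Of the 48 precursors, 6 were above 0 in all 4 libraries, 3 were listed at 0 in 1 to 3 libraries and 39 were listed at 0 in all 4. The 6 were *MIR156c*, *MIR162a*, *MIR163*, *MIR167a*, *MIR172a* and *MIR398c*, and the 3 were *MIR159b*, *MIR408* and *MIR838*. A value in any library was thus present for 18.8% of the precursors, against 9.23% of the 130 other *MIR* genes and 70.5% of all genes. By library, 7 and 8 precursors were above 0 in Col-0, against 9 and 8 in *35S-COLDAIR*. An exact 0 in a table without read numbers can be a failed estimate, so these genes are described as listed at 0 and not as silent.

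Counts in this paragraph cover only the picked genes of each family. The 9 precursors with a value came from 9 families, and no family had more than 1 such precursor. Among the *MIR* genes that were not picked, *MIR167d* and *MIR169m* belong to families described here and also had values. In miR172, which targets *APETALA2*-like repressors of flowering, 1 of 5 precursors had a value. In miR156, miR159 and miR398 it was 1 of 3 in each family, in miR162 it was 1 of 2, and miR163, miR167, miR408 and miR838 were represented by 1 precursor each. The other 18 families, miR169 among them, were listed at 0 throughout in their picked precursors. They include miR160 and miR164 with 3 precursors each, miR165, miR166, miR168, miR319, miR390 and miR396 with 2 each, and *MIR173*, whose product starts the production of *TAS1* and *TAS2* phased small RNAs. Those of their targets that were listed had very different levels in the same RNA. *AGO1*, the target of miR168, had a mean of 77.5 FPKM in Col-0 and 82.6 FPKM in *35S-COLDAIR*. *CUC1*, a target of miR164, had a mean of 0.131 FPKM in Col-0 and 0.283 FPKM in *35S-COLDAIR*.

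**Figure D1:**
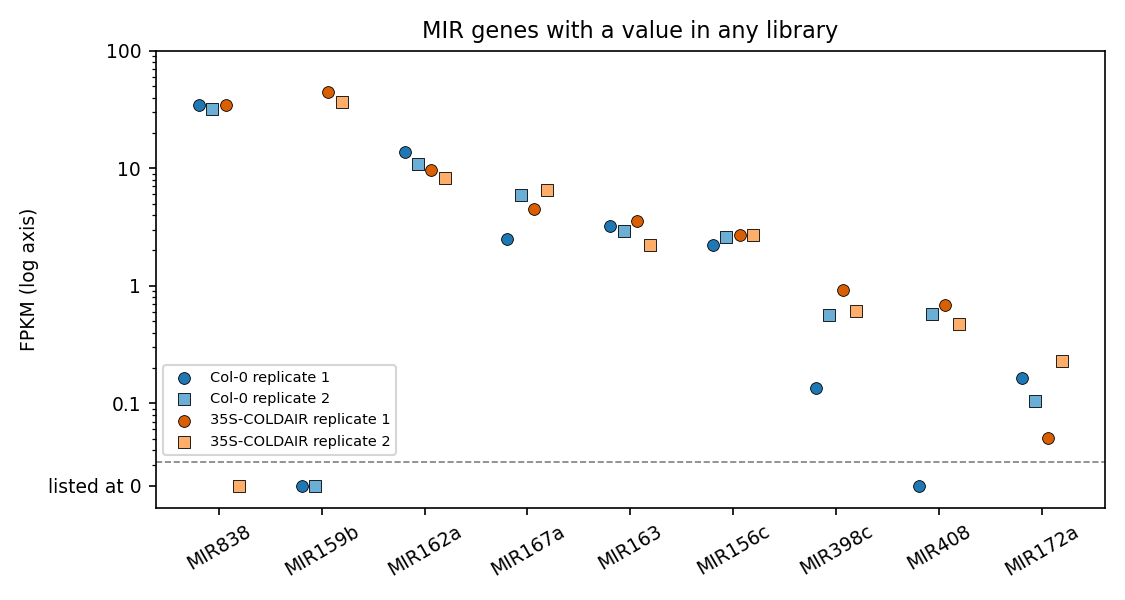
FPKM on a log axis of the 9 precursors with a value in any library, with 1 point per library and values of 0 drawn under the dashed line. *MIR159b* is listed at 0 in both Col-0 libraries, *MIR838* in replicate 2 of *35S-COLDAIR* and *MIR408* in replicate 1 of Col-0.

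Genes as short as these precursors rarely had a value. The reference transcripts of the 39 precursors at 0 were 85 to 226 nt long with a median of 123 nt, those of the 9 with a value 102 to 331 nt with a median of 140 nt, and 47 of the 48 were under 250 nt. None of the 722 genes of up to 100 nt had a value in any library. The numbers were 7 of 217 genes (3.23%) from 101 to 150 nt, 12 of 174 (6.90%) from 151 to 200 nt and 28 of 228 (12.3%) from 201 to 250 nt, and 86.4% from 1001 to 2000 nt. Of the 7 valued genes between 101 and 150 nt, 5 were among the 48 precursors. Short genes were also the ones that were listed at 0 in some libraries while high in others. Among genes that reached 5 FPKM in a library, 26 of 38 under 250 nt (68.4%) were at 0 in another library, against 31 of 15322 of at least 250 nt (0.202%).

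**Figure D2:**
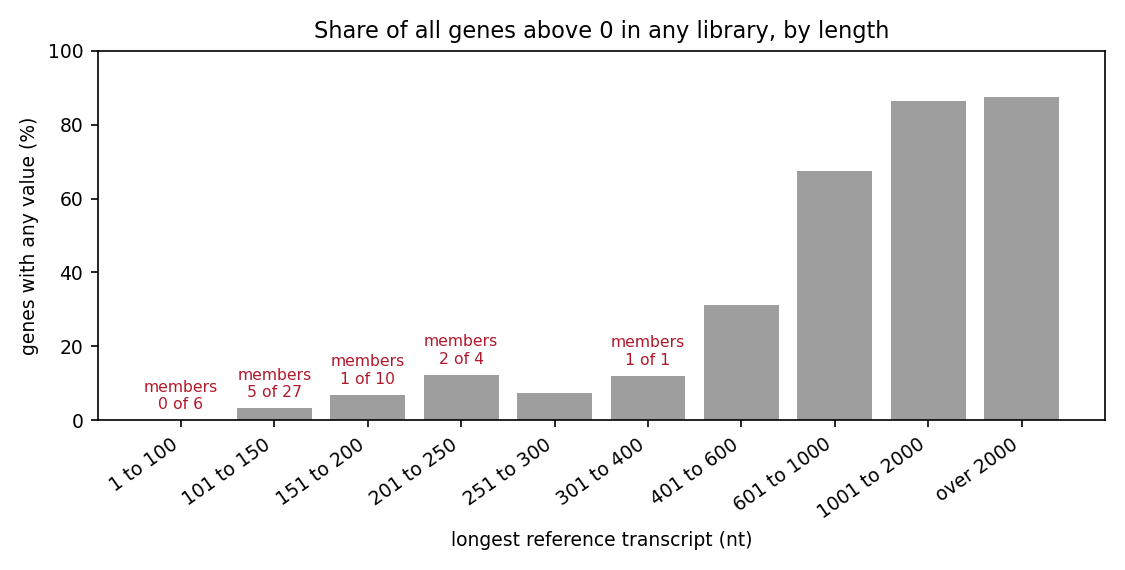
Share of genes above 0 in any library, in percent, by length of the longest reference transcript, with the number of the 48 precursors (members) that have a value in each class. The share is 0 of 722 genes up to 100 nt and 86.4% from 1001 to 2000 nt.

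The values of 2 precursors stood in whole-number ratios to those of other short genes. A table of FPKM keeps the step of the counting where 2 genes with the same divisor have values in whole-number ratios, and the valued genes under 250 nt, 46 in all, were searched for such ratios with a tolerance of 0.0001. *MIR159b* had the same value as AT2G36854, a gene of 186 nt, in replicate 2 of *35S-COLDAIR* (36.7 FPKM), and its value in replicate 1 was that of AT2G36854 divided by 4 (44.7 against 179 FPKM). The reference length of *MIR159b* is 196 nt, so a shared divisor is assumed from these ratios and is not given by the lengths. With a shared divisor, *MIR159b* lay on the smallest step found in replicate 1. Equal values, as in replicate 2, do not show the step itself. *MIR838* was at 2 steps in both Col-0 libraries, where AT4G36791, also 207 nt long, was at 1 step in each and AT3G20900, of the same length, at 1 and 4 steps. In replicate 1 of *35S-COLDAIR* it had the same value as AT3G20900 (34.3 FPKM), the lowest of that length there, so the step itself was not seen in that library. The comparison genes were chosen after their values were seen. How many reads make a step could not be fixed. Low values of 5850 single-exon genes were searched for the depth of each library, and the best depth was 1.97 to 2.03 times as high when the upper limit of the search was raised from 80 to 130, so no read numbers are given.

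**Figure D3:**
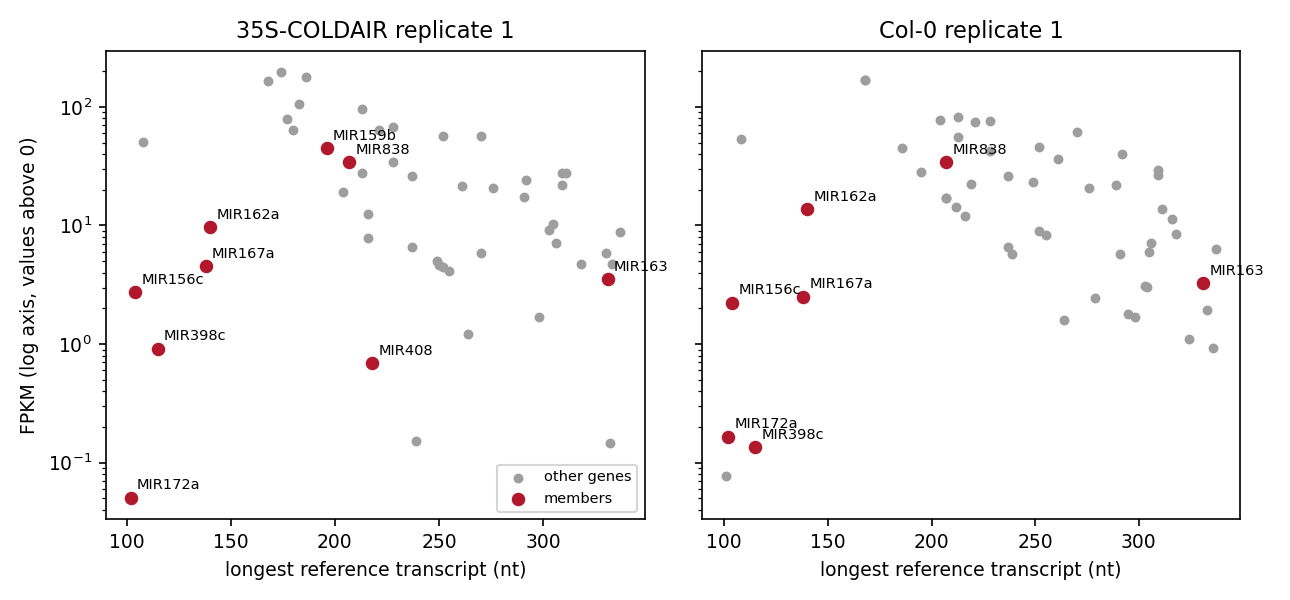
FPKM on a log axis against length of the longest reference transcript, for short genes above 0 in replicate 1 of *35S-COLDAIR* (left) and of Col-0 (right). *MIR159b* is at 44.7 FPKM on the left and listed at 0, so not drawn, on the right; *MIR172a* at 102 nt has 0.0509 FPKM on the left and 0.166 on the right.

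The order of the family levels, as FPKM summed over a family's picked precursors, is that of the 9 precursors with a value. Other genes of a family were left out of its sum. These levels are set across 2 tables that each hold 1 library of each genotype, and it is not stated whether the tables were normalized together. By the mean over the 4 libraries miR838 and miR159 came first, but with libraries listed at 0 they ran from 0 to 34.4 FPKM and from 0 to 44.7 FPKM and overlapped. Next came miR162 with 10.6 ± 2.36 FPKM (SD, n = 4), above miR167 with 4.87 ± 1.77 FPKM (SD, n = 4) in every library. The miR163 and miR156 levels, 2.98 ± 0.567 and 2.57 ± 0.233 FPKM (SD, n = 4), overlapped with each other and with miR167. The lowest were miR398 with 0.556 ± 0.321 FPKM (SD, n = 4), miR408 with 0 to 0.688 FPKM and miR172 with 0.138 ± 0.0776 FPKM (SD, n = 4), whose ranges also overlapped. Because the length that the reads of each precursor were divided by is not known, this order does not rank the numbers of reads.

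*MIR838* (AT1G01046) lies on chromosome 1 from 28500 to 28706 on the plus strand, in intron 14 of *DCL1*, the gene of the enzyme that cuts the precursors. Its level was 34.4 and 31.95 FPKM in the Col-0 libraries, whereas the *35S-COLDAIR* libraries had 34.3 FPKM (replicate 1) and 0 (replicate 2). The 3 libraries with a value lay close together, and the fourth was listed at 0. *DCL1*, on the same strand, had 10.1 and 10.2 FPKM in Col-0, against 9.26 and 9.72 FPKM in *35S-COLDAIR*, with no such gap. *MIR838* overlaps no exon of *DCL1*, so only reads of unspliced *DCL1* RNA cannot be told apart from its own by position. Where a precursor overlaps an exon of a gene on the same strand, the reads of both cannot be told apart by position.

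*MIR159b* (AT1G18075, chromosome 1, 6220646 to 6220841, plus strand) encodes miR159, which represses GAMYB-like *MYB33* and *MYB65*. It was listed at 0 in both Col-0 libraries whereas the *35S-COLDAIR* libraries had 44.7 and 36.7 FPKM. The genotypes did not overlap. *MIR159a* (184 nt), whose mature form differs by 1 base, and *MIR159c* (225 nt) were listed at 0 in all 4 libraries.

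*MIR162a* (AT5G08185, chromosome 5, 2634905 to 2635044, minus strand) makes miR162, which cleaves the *DCL1* mRNA. It had 13.8 and 10.8 FPKM in Col-0, against 9.62 and 8.26 FPKM in *35S-COLDAIR*, with both Col-0 libraries above both *35S-COLDAIR* libraries. *MIR167a* (AT3G22886, chromosome 3, 8108072 to 8108209, plus strand), whose product targets *ARF6* and *ARF8*, had 2.51 and 5.90 FPKM in Col-0, against 4.55 and 6.52 FPKM in *35S-COLDAIR*. In both genotypes replicate 2 was higher than replicate 1, and the genotypes overlapped. *MIR163* (AT1G66725, chromosome 1, 24884066 to 24884396, plus strand), the longest precursor of the 48, makes a 24-nt microRNA against methyltransferase genes of the SABATH family. Its level was 3.25 and 2.90 FPKM in Col-0, against 3.53 and 2.22 FPKM in *35S-COLDAIR*, which overlapped.

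*MIR156c* (AT4G31877, chromosome 4, 15415418 to 15415521, minus strand), 1 of the precursors of the miR156 that holds back *SPL* genes, had 2.23 and 2.63 FPKM in Col-0, against 2.72 and 2.71 FPKM in *35S-COLDAIR*. Both *35S-COLDAIR* libraries were above both Col-0 libraries, by little. *MIR398c* (AT5G14565, chromosome 5, 4694694 to 4694808, plus strand) had 0.135 and 0.564 FPKM in Col-0, against 0.914 and 0.612 FPKM in *35S-COLDAIR*, again without overlap. *MIR408* (AT2G47015, chromosome 2, 19319814 to 19320031, plus strand), whose product targets laccase and plantacyanin mRNAs, was listed at 0 in replicate 1 of Col-0 and had 0.576, 0.688 and 0.469 FPKM in the other libraries. *MIR172a* (AT2G28056, chromosome 2, 11942914 to 11943015, minus strand) had 0.166 and 0.105 FPKM in Col-0, against 0.0509 and 0.231 FPKM in *35S-COLDAIR*. The 2 *35S-COLDAIR* values enclosed both Col-0 values.

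Of the 48 precursors, 7 overlap another annotated gene, *MIR838* among them. *MIR408* lies antisense to an exon of AT2G47020 (5.99 and 5.91 FPKM in Col-0, 6.50 and 6.52 FPKM in *35S-COLDAIR*), and the strand setting of the counting is not given. *MIR156b* lies within the non-coding AT4G30975 on the same strand, overlaps an exon of it and was listed at 0. AT4G30975 itself had 0.911 and 0.760 FPKM in Col-0, against 0 and 0.920 FPKM in *35S-COLDAIR*. *MIR398b*, antisense to an exon of AT5G14550, *MIR397a*, antisense in intron 9 of *ENT6*, *MIR169a*, which overlaps AT3G13404 on its strand, and *MIR165a*, opposite AT1G08765, were listed at 0.

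The genotypes were compared to ask whether precursor levels changed with overexpressed *COLDAIR*. Levels were taken as log2(FPKM + 1) and fitted with limma over all 20142 genes whose mean reached 0.5 FPKM. The scale understates the change of low genes, and with 2 libraries against 2 an exact permutation test of 1 gene cannot go below p = 0.33. The filter kept 7 of the 48 precursors, and it left out *MIR408* and *MIR172a*. Of the 7, 1 was called higher in *35S-COLDAIR* and 0 lower at an adjusted p of 0.05, where the calls made up 0.00496% of all tested genes in each direction, 1 gene each. By limma, 1 of the 7 had an unadjusted p under 0.05, and 522 of all tested genes did. In 3 of the 7 both *35S-COLDAIR* libraries lay above both Col-0 libraries and in 1 they lay below, against 14.8% and 14.3% of all tested genes. The median log2 fold change was 0.12 over the 7 and 0.00 (0.00197) over all tested genes. A precursor can pass the filter through the genotype in which it is high. Of the 3 that lay above, *MIR159b* and *MIR398c* had Col-0 means of 0 and 0.349 FPKM, under the filter. They passed it only through the *35S-COLDAIR* libraries, so the 3 of 7 is not read as an excess over 14.8%.

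*MIR159b* was the called precursor, at 5.38 on the log2 scale (SE 0.139; Benjamini-Hochberg adjusted p of 0.0141 in limma). It passed the filter only through the *35S-COLDAIR* libraries, and the 2 zeros of Col-0, which can be failed estimates, give that genotype no spread. The fitted change, its error and its p are therefore set in part by the zeros and by the pseudocount, and they do not support a change in the level of *MIR159b* by themselves. The difference was 5.52 within replicate 1 and 5.24 within replicate 2. In replicate 1 of *35S-COLDAIR* the value is the smallest step found, if the divisor is shared with AT2G36854. The other called gene, AT4G36791, lay on such a step as well, with 17.2 and 16.0 FPKM in Col-0 and 0 in both *35S-COLDAIR* libraries. Both called genes are under 250 nt, as are 40 of the genes tested. The *MIR159b* call was lost with each library left out in turn, at adjusted p of 0.0701 and 0.0799 without replicates 1 and 2 of Col-0 and 0.155 and 0.0527 without replicates 1 and 2 of *35S-COLDAIR* (limma). Over all alternatives that tested it the adjusted p ran from 0.00254 to 0.155.

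None of the other 6 tested precursors passed. *MIR838* changed by -2.52 on the log2 scale (SE 1.72; limma adjusted p of 0.9998), which was 0.05 without replicate 2 of *35S-COLDAIR* and rests on the 0 of that library. *MIR162a* had -0.41 (standard error 0.156), with -0.48 within replicate 1 and -0.35 within replicate 2. The log2 fold changes of *MIR398c*, *MIR167a*, *MIR156c* and *MIR163* were 0.40, 0.39, 0.12 and -0.09, with standard errors of 0.239, 0.373, 0.135 and 0.208. The sign of *MIR167a* turned without replicate 1 of Col-0 (-0.10) and that of *MIR163* without replicate 2 of *35S-COLDAIR* (0.15). Without replicate 1 of Col-0, *MIR398c* was at 0.17, *MIR156c* at 0.036 and *MIR162a* at -0.25, and without replicate 2 of Col-0 they were at 0.63, 0.20 and -0.58.

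**Figure D4:**
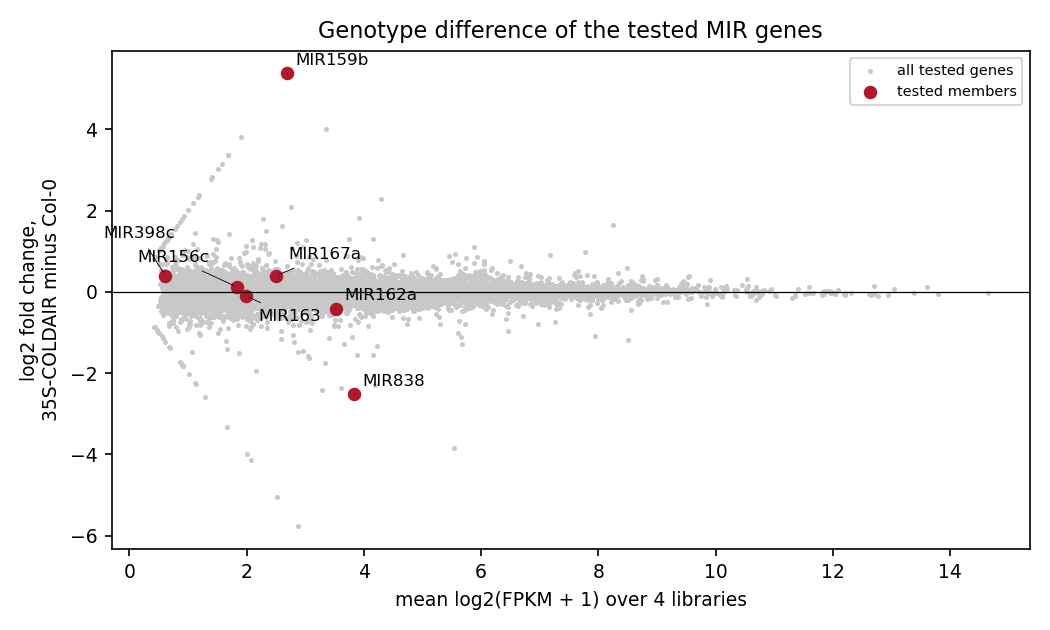
Log2 fold change of *35S-COLDAIR* minus Col-0 against the mean log2(FPKM + 1) of the 4 libraries, for the 20142 tested genes (grey) and the 7 tested precursors (red). *MIR159b* is the highest point at 5.38, *MIR838* is at -2.52 and the other 5 lie between -0.41 and 0.40.

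No gene that makes or uses microRNAs passed the test, which does not show that their levels were equal. All 22 listed genes of biogenesis and action were tested, 0 passed in either direction, and by limma 0 had an unadjusted p under 0.05. Their log2 fold changes lay between -0.27 (*AGO7*, which binds miR390) and 0.13 (*PRL1*), with a median of 0.01 against 0.00 (0.00197) over all tested genes. *DCL1* changed by -0.09 (standard error 0.0929) and *AGO1* by 0.09 (standard error 0.0726).

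Of 94 listed microRNA targets, 82 were tested and 0 passed in either direction. The 94 include 4 targets of miR395 and 1 of miR399, families that are not described here, and all of these were tested. By limma 4 of the 82 had an unadjusted p under 0.05, *SPL15*, *CSD1*, *CSD2* and *CCS*, against 522 of all 20142 tested genes. With the replicate number as a block it was 8 of the 82 and 1608 of the 20142, and again 0 targets passed. The median log2 fold change of the 82 was 0.00 (-0.00145). For miR159, 2 of 8 targets were tested. *MYB33* had 10.9 and 10.7 FPKM in Col-0, against 9.66 and 10.8 FPKM in *35S-COLDAIR*, and *MYB65* 2.26 and 1.77 FPKM in Col-0, against 1.84 and 1.71 FPKM in *35S-COLDAIR*. Both overlapped between the genotypes. For miR156, 10 of 11 *SPL* targets were tested, with log2 fold changes from -0.47 to 0.21. *SPL15*, a promoter of flowering, had 2.63 and 3.16 FPKM in Col-0, against 1.77 and 1.83 FPKM in *35S-COLDAIR*; the difference was -0.47 on the log2 scale (SE 0.143; limma adjusted p of 0.9998).

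The 3 miR398 targets showed the largest differences among the targets, and they are named here after their values were seen. *CSD1* and *CSD2*, copper and zinc superoxide dismutases, and *CCS*, their copper chaperone, were lower in both *35S-COLDAIR* libraries than in both Col-0 libraries. *CSD1* had 486 and 262 FPKM in Col-0, against 169.1 and 164.9 FPKM in *35S-COLDAIR*. *CSD2* had 764 and 395 FPKM in Col-0, against 232 and 249 FPKM in *35S-COLDAIR*. *CCS* had 164.03 and 89.7 FPKM in Col-0, against 60.1 and 64.4 FPKM in *35S-COLDAIR*. Replicate 1 of Col-0 was the highest library for each. It was also the highest for all 3 seed markers, with 22.0 FPKM of *CRA1* (5.60 to 11.0 in the other libraries), 1.99 FPKM of *SESA1* (0.102 to 0.364) and 1.82 FPKM of *OLEO1* (0.550 to 1.21), and the part of this in the difference was not tested. The log2 fold changes were -1.09, -1.19 and -0.95 (standard errors 0.304, 0.325 and 0.297), and the adjusted p from limma was 0.9998 for each. Without replicate 1 of Col-0 they were -0.65, -0.72 and -0.52. *MIR398c* was higher in *35S-COLDAIR* without passing the test, and *MIR398a* and *MIR398b* were listed at 0; whether these levels are related was not tested.

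The libraries held the markers of green seedlings. *RBCS1A*, *RBCS3B* and 2 *LHCB1* genes had 6124 to 13164 FPKM, the root genes *SHR*, *SCR*, *PHT1;1* and *IRT1* 5.19 to 25.6 FPKM, and the floral genes *AP3*, *PI* and *AG* 0 to 1.06 FPKM. The seed genes *CRA1*, *SESA1* and *OLEO1* were each highest in replicate 1 of Col-0, as given above. *FLC*, the gene whose intron the transgene carries, had 2.05 and 1.13 FPKM in Col-0, against 43.4 and 37.6 FPKM in *35S-COLDAIR*. It was tested but was not among the 2 genes called by limma, although the genotypes did not overlap. A gene that did not pass the test can therefore still differ strongly between these libraries.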

How the data were processed

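The authors deposited FPKM for each gene in 2 tables, and each table holds the same-numbered Col-0 and *35S-COLDAIR* libraries. The study's methods name TopHat and cuffdiff, and the submitters' processing notes name STAR 2.5.2b, Cuffdiff and TAIR10; the annotation, the strand setting, the treatment of multiply mapped reads and whether the tables were normalized together are not given in the sources used here. The precursors, lists and tests were chosen with earlier results of these data known. Columns were assigned to libraries by their names, which give the replicate number; the names of the 2 tables carry these numbers the other way round, so each replicate number here rests on the column names. The genotypes do not depend on it. Names, positions, lengths and mature sequences came from RefSeq TAIR10.1, which matched 31416 of the 33854 identifiers with a transcript length and all 48 precursors.

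log2(FPKM + 1) was compared with limma 3.58.1 in R 4.3.3 (lmFit, eBayes with a trend), without a block, for genes whose mean reached 0.5 FPKM, with Benjamini-Hochberg adjustment over all tested genes and a threshold of 0.05. The fit was tested on simulated data, where it recovered the changed genes but made somewhat more false calls than the threshold allows for. The simulation gave every gene the same noise and held no failed estimates, so it does not cover a gene such as *MIR159b*. Its recovery also does not carry over to the deposited libraries, where *FLC* was not called. Ratios between short genes and the steps of low values were searched in Python 3.11.15 (numpy 2.4.6, pandas 2.3.3). The depth of a library could not be fixed from these steps: with the first upper limit tried, 80, a better fit at about 2 times that depth had been missed. The depth is therefore taken as unknown, and no count test was run.

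Values in every library were printed for precursors listed at 0 in 1 to 3 libraries and at 1 FPKM or more in another, the 8 with the highest mean, the 5 largest increases and decreases without overlap at a mean of at least 1 FPKM, and the highest precursor of each family with 2 or more. Other genes were named as host, overlapping or target genes, and exceptions are stated where they occur. The alternatives were pseudocounts of 0.1 and 10, a filter at 1 FPKM, no filter, no variance trend, quantile normalization, the replicate block, genes of at least 250 nt, and each library left out. The pseudocount of 10 and the length limit were added after seeing the data.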

Additional observations from a re-analysis of the deposited data

How the results depend on the processing

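The number of genes called across the genome was 2. It was 0 among genes of at least 250 nt, where *MIR159b* is not tested and the number of precursors called higher was 0 (by limma, 524 genes had an unadjusted p under 0.05), and between 0 and 6 when single libraries were left out, where the cause was not tested. The number of precursors called higher was 0 with any library left out. With the replicate number as a block, 7 genes were called, and *MIR159b* had an adjusted p of 0.00254 from limma; no other precursor changed its call. Same-numbered libraries deviated together (r = 0.374 over 20142 genes), but the labels do not say that a number marks a shared batch, so the block is given only as an alternative. Leaving out libraries moved the log2 fold change of *MIR838* between -5.09 and 0.050, of *MIR167a* between -0.10 and 0.88 and of *MIR163* between -0.34 and 0.15. For *MIR156c* it lay between 0.036 and 0.20 and for *MIR162a* between -0.58 and -0.25. For *MIR398c* it lay between 0.17 and 0.63. Without replicate 1 of *35S-COLDAIR*, *MIR398c* had a mean of 0.437 FPKM, under the filter, and was not tested. The log2 fold change of *MIR159b* ran from 2.34 with a pseudocount of 10 to 8.67 with 0.1, and that of *MIR398c* from 0.057 to 1.11. With 1 FPKM as the limit of detection, 4 precursors were detected in all 4 libraries and 42 in none. The limit that depth sets for the 39 precursors at 0 is unknown, because neither the depth nor the length that their reads would be divided by is known.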

Other observations

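Of the 130 *MIR* genes outside the 48, 12 had a value in any library, 7 of them in all 4. *MIR414* (108 nt) had 53.1 and 47.8 FPKM in Col-0, against 50.6 and 42.3 FPKM in *35S-COLDAIR*. *MIR167d*, a relative of *MIR167a*, had 10.5 and 21.7 FPKM in Col-0, against 13.0 and 24.4 FPKM in *35S-COLDAIR*, with replicate 2 the higher library in both genotypes, as for *MIR167a*. *MIR169m* was listed at 0 in replicate 1 of both genotypes and had 13.1 FPKM (Col-0) and 21.7 FPKM (*35S-COLDAIR*) in replicate 2. *MIR841a*, also 212 nt long, had the same values as *MIR169m* in both replicate 2 libraries, and 14.3 FPKM and 0 in replicate 1 of Col-0 and *35S-COLDAIR*. *MIR828* had 100 FPKM in replicate 2 of Col-0 and was listed at 0 in the other 3 libraries.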
